A study of Mus musculus with 4 samples.

Results

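Interferon response and antigen presentation genes were followed across the spinal cord and the duodenum of IP6K2-deficient and wild-type mice. The set of 46 genes was given by name, as RNA sensors and signalling factors, antiviral effectors, interferon-inducible GTPases, the chemokine gene Cxcl10, and the MHC class I and class II presentation genes. Of the 46, 44 had at least 1 probe that could be named, out of 32575 genes or identifiers on the array. Mx1 and Mx2 had no named probe.

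Interferons of types I and III are secreted when cells sense viral or other foreign nucleic acid. Type I and type III interferons signal through JAK kinases to transcription factors, STAT2 and IRF9 among them, that bind an element called the ISRE in the promoters of antiviral genes, whereas the response to interferon gamma runs largely through the GAS element. MHC class I molecules display peptides cut by the immunoproteasome and carried by the TAP transporter, are found on nearly all cells, and are switched on by NLRC5. MHC class II molecules are carried mainly by B cells, dendritic cells and macrophages, depend on CIITA, and are also made by the intestinal epithelium under interferon gamma.

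Each of the 4 arrays held RNA of 1 group. The groups were spinal cord and duodenum of WT littermates and spinal cord and duodenum of IP6K2-KO mice. How many mice gave each RNA, and whether RNA was pooled, was not stated in the sources used here. All mice were males of 20 weeks. Their plant-based rearing chow, CE-2, was replaced by purified iVid-neo food for 1 week, and all food was then withheld for 48 h. IP6K2 is an inositol hexakisphosphate kinase, and the KO lacks an exon that encodes its kinase domain. With 1 array per genotype and tissue there was no replicate, so no difference below has a test or a replicate check, and genotype, animal and dissection cannot be told apart. Nor can fewer cells of a type and less RNA per cell be told apart in such tissue RNA.

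Signal strength differed between the arrays. The 75th percentile of the processed signal over 39429 probes was 905 in WT spinal cord, 971 in KO spinal cord, 68.0 in WT duodenum and 323 in KO duodenum. The share of probes well above background was 76.7%, 77.4%, 51.6% and 66.3% in the same order. The WT duodenum array was thus the dimmest. All levels below are log2 processed signal minus the 75th percentile of the array, so a level of 0 is the 75th percentile itself, and differences are on the log2 scale. Differences were taken between arrays for the same probe. Signals of different probes are set side by side only to show which lay near background or made up most of a list's sum, not as relative abundance. The only error that could be given is the technical SD of a difference, taken from the spread of those probes that each array carries in 10 copies, which leaves out all variation between mice.

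The labels were checked first. Among spinal cord arrays, the Ip6k2 probe read 452 units of processed signal for WT and 1320 for the one labelled KO, a log2 difference after scaling of 1.45 with a technical SD of 0.065. In the duodenum its scaled level was 1.04 in WT and 0.83 in KO, a difference of -0.21 (technical SD 0.084). The gene to be deleted was therefore brighter, not dimmer, on the spinal cord array labelled KO, and only slightly dimmer on the duodenal one. The position of the probe relative to the deleted exon was not given in the sources used here, so a probe outside it would check nothing, and "KO" below means the array labelled KO. The tissues matched their labels. Cdx2 and Alpi, a transcription factor and a brush border phosphatase of the intestine, were well above background on both duodenum arrays and on neither spinal cord array. Gfap, the astrocyte filament gene, was well above background on both spinal cord arrays and on neither duodenum array.

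In the spinal cord, the MHC class II genes stood apart. H2-Aa, H2-Ab1, H2-Eb1 and Cd74 were each at least 2-fold higher in KO than in WT, and no other member was. These 4 of 43 members measured compare with 2.28% of all 25216 genes measured, and no member was at least 2-fold lower, against 0.865% of all genes. The median over the members was 0.18, while that over all genes was -0.04. A gene was counted as measured when it was well above background on at least 1 of the arrays compared. Of the 43 members above background on both arrays, 33 were higher and 10 lower in KO, against 9975 higher and 14191 lower among all genes above background on both. Small differences depended on the processing. Read against the median of all genes, since some scalings shift all genes alike, 24 of the 43 members stayed on the same side with normexp, another background correction, and 40 of 43 did with flagged local backgrounds replaced. Under all 8 alternatives together 23 of 43 did, 17 of them higher and 6 lower.

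**Figure D1:**
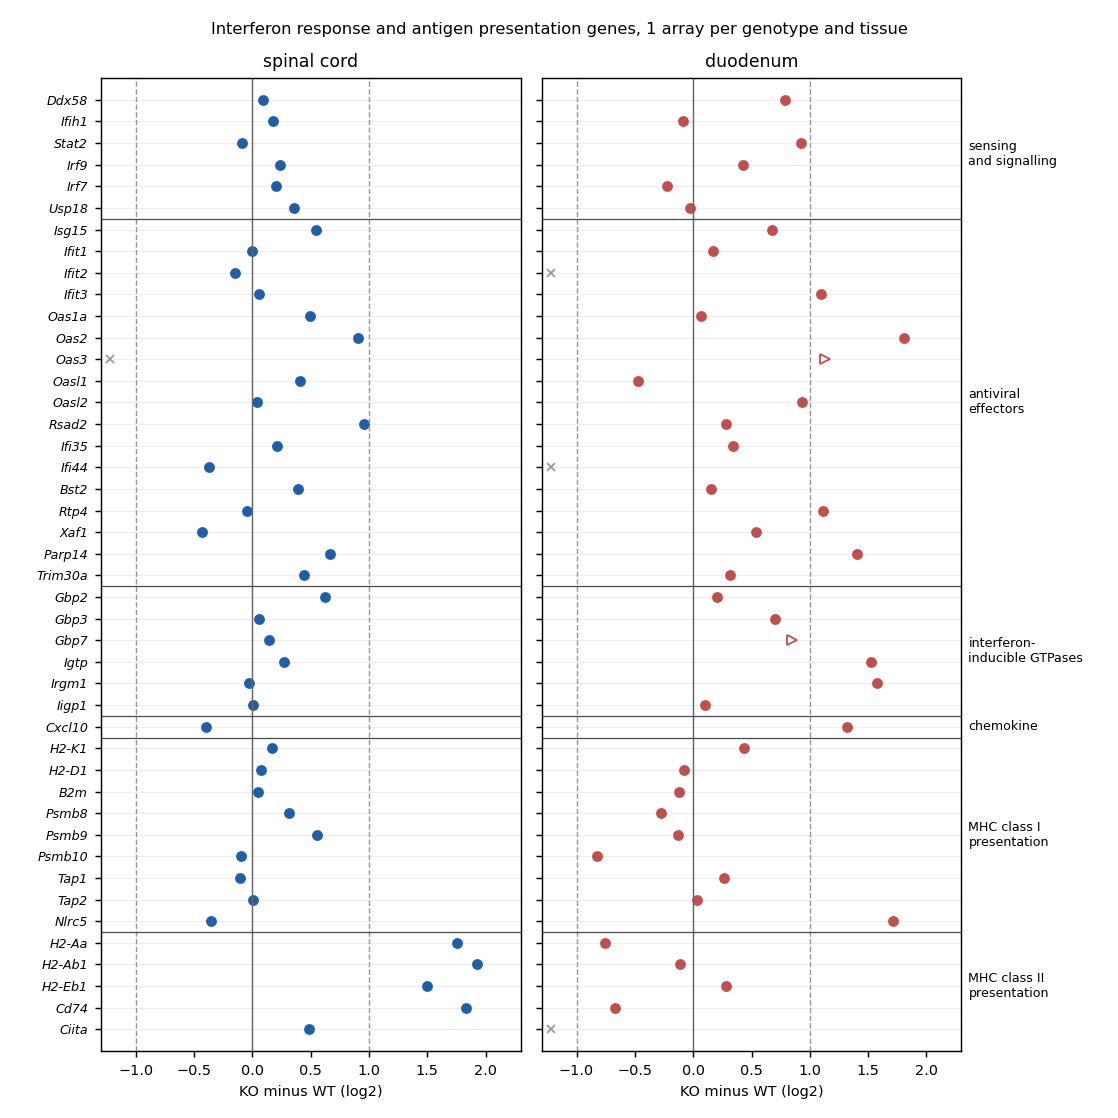
Difference KO minus WT (log2, horizontal axis) for each of the 44 members with a probe, in spinal cord (left) and duodenum (right), grouped by role, with filled circles for genes above background on both arrays, open triangles for lower bounds, crosses at the left edge for genes with no fold, and dashed lines at 2-fold. In spinal cord the points beyond 2-fold are H2-Aa, H2-Ab1, H2-Eb1 and Cd74, and in duodenum they are 9 genes of other roles.

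H2-Ab1 encodes the beta chain of the I-A molecule. Its level was -1.56 in WT spinal cord and 0.37 in KO spinal cord, 3.81-fold higher, with a technical SD of the log2 difference of 0.065. A second H2-Ab1 probe gave a difference of 1.96, close to the 1.93 of the first. H2-Aa, the alpha chain of the same molecule, was dim, with signals of 26.2 and 95.0, levels of -5.11 and -3.35, and a 3.38-fold difference. H2-Eb1, the beta chain of I-E, had levels of -1.19 in WT and 0.30 in KO, 2.82-fold higher. Cd74, the invariant chain that guides class II molecules to the endosome, had levels of -2.03 and -0.20, 3.56-fold higher. Both chains of I-A, the I-E chain and the chaperone therefore lay within a narrow band, from 2.82-fold to 3.81-fold. Ciita, the class II transactivator, had levels of -6.38 and -5.89, a difference of 0.49 with a technical SD of 0.21, at the low signals of 10.9 and 16.4. Under normexp H2-Ab1 stayed above 2-fold at 1.18, H2-Eb1 and Cd74 both gave 0.99, and H2-Aa turned to -1.26, while the median of all genes moved to -0.54. The WT array held some flagged, very high local backgrounds, and with these replaced H2-Ab1, Cd74, H2-Eb1 and H2-Aa gave 1.64, 1.64, 1.40 and 0.70. Ciita turned to -2.24 under normexp and gave -0.03 with flagged backgrounds replaced.

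Promoter sequence was available in RefSeq (build GRCm38.p6, from 250 bases before to 50 after the gene start) for H2-Aa and H2-Eb1 among the class II members, and is shown because these genes differed together. The windows are H2-Aa at chr17:34287774-34288073, minus strand, and H2-Eb1 at chr17:34305617-34305916, plus strand. Capitals mark CCAAT on either strand, the Y box motif of class II promoters, which reads ATTGG in the opposite sense.
H2-Aa: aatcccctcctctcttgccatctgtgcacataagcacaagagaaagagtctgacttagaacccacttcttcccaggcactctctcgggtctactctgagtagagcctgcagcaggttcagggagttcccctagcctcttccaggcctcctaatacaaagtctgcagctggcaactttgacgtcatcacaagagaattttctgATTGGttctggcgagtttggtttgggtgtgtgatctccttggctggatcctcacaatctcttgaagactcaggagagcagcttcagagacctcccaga
H2-Eb1: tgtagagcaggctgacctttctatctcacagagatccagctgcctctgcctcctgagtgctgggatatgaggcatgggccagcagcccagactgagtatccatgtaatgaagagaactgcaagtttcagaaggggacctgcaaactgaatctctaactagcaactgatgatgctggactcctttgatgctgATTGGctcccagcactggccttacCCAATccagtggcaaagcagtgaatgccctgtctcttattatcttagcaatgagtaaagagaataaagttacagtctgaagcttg
H2-Aa held 1 match, starting 48 bases before the gene start, and H2-Eb1 held 2, starting 59 and 35 bases before it. CCAAT was also found in 37.4% of all 32851 windows, so the letters alone are common. A match is only a description of the window.

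The other class II genes gave smaller differences in the spinal cord. Of 11 further class II genes with a probe, none was 2-fold apart, and their median was 0.39. H2-DMb1, a chain of the peptide-loading chaperone H2-DM, had levels of -1.98 and -1.03, a difference of 0.95, and H2-Ob, a chain of its inhibitor H2-O, gave 0.94 at the low signals of 20.5 and 42.2. H2-DMa, the partner chain of H2-DMb1, gave 0.39. The factors that build the class II promoter complex differed less, with -0.16 for Rfx5, -0.18 for Rfxap and 0.50 for Rfxank. Ctss, the gene of a protease that trims the invariant chain, gave -0.15.

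Markers of several cell types were also higher in the KO spinal cord. All 6 B and plasma cell markers were higher in KO, 4 of them at least 2-fold, with a median of 1.06. Ms4a1 (CD20) differed by 2.20, Cd79b by 1.79, Jchain by 1.11 and Cd79a by 1.00. These genes are dim, and under normexp the list turned to a median of -1.25, with 4 of 6 at least 2-fold lower. With flagged backgrounds replaced its median was 0.61, with 1 of 6 at least 2-fold higher. The summed linear level of this list, in units of the 75th percentile, was 0.329 in WT and 0.900 in KO, and Jchain was its brightest gene over the 4 arrays. The 6 neutrophil markers had a median of 1.08 and a summed level of 56.1 in WT and 107 in KO. The 6 red cell markers had a median of 1.18 with summed levels of 228 and 351, the 6 skeletal muscle markers one of 4.07 with sums of 2.71 and 45.6, and the 5 peripheral nerve markers one of 4.17 with sums of 5.21 and 29.1. The KO spinal cord sample thus carried more signal of blood, muscle and peripheral nerve genes than the WT sample. The macrophage and microglia markers differed less. Their median was 0.10, their summed level was 41.7 in WT and 40.9 in KO, Itgam was the brightest, and the 10 genes lay between -0.12 for Itgam and 0.70 for Adgre1. The dendritic cell markers had a median of 0.35 over 5 measured and of 0.07 over the 3 above background on both arrays. Cd209a and Clec9a among them, not above background in WT, were at least 2.09-fold and 1.46-fold higher in KO, and Xcr1 was not above background on any array. The T and NK cell markers had a median of 0.28 over 7 measured and of 0.57 over the 6 above background on both arrays, from -0.42 for Cd3e to 2.13 for Gzma, and summed levels of 1.32 in WT and 1.31 in KO. Under normexp the dendritic and the T and NK medians turned to -2.003 and -1.58, or were 0.06 and 0.21 with flagged backgrounds replaced, while the neutrophil, red cell, muscle and nerve medians stayed above 1 under both. All 5 general leukocyte markers were higher in KO, between 0.36 and 0.92, with a median of 0.40. Their summed level was 5.60 in WT and 7.28 in KO. The leukocyte median turned to -0.59 under normexp, or -0.06 relative to all genes, and was 0.34 with flagged backgrounds replaced. The part of these cell types in the class II difference was not tested.

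**Figure D2:**
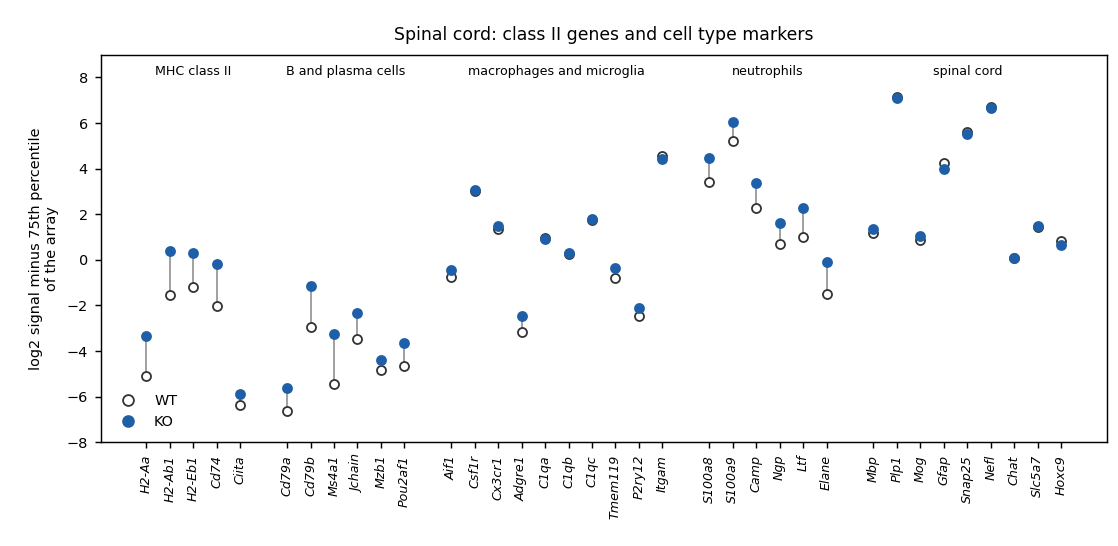
Level (log2 signal minus the 75th percentile of the array, vertical axis) of the class II members and of markers of 4 cell or tissue types in WT (open) and KO (filled) spinal cord, 1 array each. The class II chains, Cd74 and all 6 B and plasma cell markers were higher in KO on this scale, with the B cell median turning to -1.25 and H2-Aa to -1.26 under normexp, whereas the median marker of the spinal cord itself differed by -0.04.

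The class I genes hardly differed in the spinal cord. Their median was 0.05 over 9 genes, from -0.35 for the transactivator gene Nlrc5 to 0.56 for the immunoproteasome subunit gene Psmb9. The heavy chain genes H2-K1 and H2-D1 gave 0.17 and 0.07, and B2m, the light chain, had levels of 2.77 and 2.82. Psmb8 gave 0.31 and Psmb10 gave -0.10. Tap1 and Tap2, the peptide transporter, gave -0.11 and 0.01. H2-K1 and H2-D1 are similar in sequence, and how far their probes share signal was not examined.

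The antiviral effectors had a median of 0.30 in the spinal cord. Of all genes above background on both arrays, 9975 were higher in KO and 14191 lower. Of the 16 effectors measured, 12 were higher in KO, none by 2-fold. Rsad2 (viperin) had the largest difference among them, 0.96, with levels of -3.13 and -2.17. Oas2, a sensor that makes 2-5A to activate RNase L, followed with 0.90, at levels of -4.77 and -3.87. Parp14 gave 0.67, Isg15 gave 0.54 on one probe and 0.63 on the other, and Oas1a gave 0.49. The IFIT genes stayed near no difference, Ifit1 with 0.00, Ifit2 with -0.15 and Ifit3 with 0.06. Xaf1 gave -0.43 and Ifi44 -0.37. Oas3 was not well above background on either spinal cord array. Under normexp the effector median turned to -0.72, or -0.18 relative to all genes, and was 0.13 with flagged backgrounds replaced. Rsad2 and Oas2 turned to -0.36 and -1.56 under normexp, and gave 0.73 and 0.33 with flagged backgrounds replaced.

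The sensing and signalling genes gave between -0.09 for Stat2 and 0.36 for Usp18, the protease that removes ISG15 and restrains the receptor. Ddx58 (RIG-I) gave 0.09, Ifih1 (MDA5) 0.18, Irf9 0.24 and Irf7 0.21. Among the GTPases, which attack membranes around intracellular pathogens, Gbp2 gave 0.63 and Igtp 0.28, and the other 4 were between -0.03 and 0.15. A second Iigp1 probe, not above background in WT, gave a bound of at least 0.88 against the 0.00 of the first. Cxcl10, which draws in activated T cells, gave -0.40. Upstream, the differences were 0.24 for Irf1, -0.24 for Ifnar1, 0.07 for Ifnar2, 0.10 for both Ifngr1 and Ifngr2, 0.04 for Ifnlr1 and 0.65 for Il10rb. Of the interferon genes, Ifnb1, Ifna4, Ifne and Ifng were not above background in either spinal cord, Ifna1, Ifna2 and Ifnl3 gave -0.35, -0.27 and -0.18, and Ifnk gave 0.44.

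Over the 79 further pathway genes with a probe, 73 were measured in the spinal cord, with a median of 0.10. At least 2-fold higher in KO were Ifi27l2a, with levels of -2.23 and -1.10 (difference 1.13), and Isg20, an exonuclease, with levels of -0.72 and 0.36 (1.08). These were 2.74% of the 73, near the 2.28% of all genes. None was 2-fold lower.

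In the duodenum, the members furthest apart came from several roles. Oas2, Nlrc5, Irgm1, Igtp, Parp14, Cxcl10, Oas3, Rtp4 and Ifit3 were at least 2-fold higher in KO than in WT, 9 of the 44 members measured, against 7.20% of all 21432 genes measured. None was 2-fold lower, whereas 11.9% of all genes were. The median over the members was 0.27 and that over all genes -0.02, and of the 39 members above background on both arrays 27 were higher and 12 lower in KO, against 7437 higher and 9375 lower among all genes. Under all 8 alternatives together 23 of the 39 stayed on the same side of the median of all genes, all 23 above it.

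The 9 genes fell into bright and dim ones. Igtp, an immunity-related GTPase, had a signal of 49.2 in WT and levels of -0.47 and 1.05, 2.87-fold higher in KO (technical SD 0.085). Parp14, an ADP-ribosyltransferase, had a WT signal of 66.5 and levels of -0.03 and 1.37, 2.65-fold higher. Rtp4, which restrains flavivirus replication, had a WT signal of 99.3 and levels of 0.55 and 1.66, 2.16-fold higher. These were the brightest of the 9 on the WT array. The other 6 had WT signals from 5.26 to 20.5, near background on this array. Oas2 had levels of -3.38 and -1.57, a difference of 1.81 with a technical SD of 0.19. Nlrc5 had signals of 10.3 and 161 and a scaled difference of 1.71, but its second probe, not above background in WT, allowed no fold. With the mean of its probes Nlrc5 gave 0.92, below 2-fold. Irgm1, another immunity-related GTPase, had levels of -2.68 and -1.10 (difference 1.58), while its second probe gave 0.43. The 2 Irgm1 probes thus disagreed in size. Cxcl10 had levels of -3.68 and -2.36 (difference 1.32, technical SD 0.26), and Ifit3, which stabilises IFIT1 on foreign RNA, had levels of -1.73 and -0.63, 2.14-fold higher in KO. Oas3 was not well above background in WT and was at least 2.19-fold higher in KO, the bound being set against its own WT signal.

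The dim genes depended on the processing. Normexp changes the background removal and also adds an offset of 50, above the WT processed signal of each dim gene. Such an offset narrows differences between dim signals, and its part was not tested apart from background removal. When the median spot signal was corrected with the normexp method in place of the scanner's processed signal, Igtp, Parp14 and Rtp4 stayed at 1.22, 1.13 and 1.06. The difference became -0.31 for Oas2, -0.14 for Irgm1, -0.59 for Cxcl10, 0.20 for Nlrc5 and 0.25 for Ifit3, and no fold could be given for Oas3. The median of all genes moved to -0.49 under this setting. Relative to it, Oas2 and Irgm1 stayed above 0, at 0.19 and 0.35, Nlrc5 and Ifit3 were at 0.69 and 0.74, and Cxcl10 was at -0.10. Under quantile normalization of the 4 arrays all 9 remained at least 2-fold higher. Relative to the median of all genes there, 7 of the 9 did, without Rtp4 and Ifit3.

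**Figure D3:**
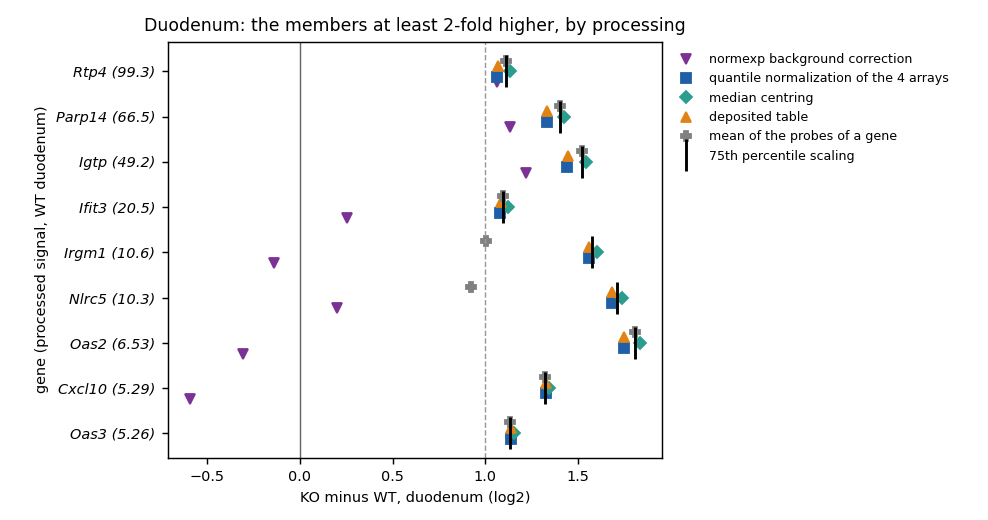
Difference KO minus WT in duodenum (log2, horizontal axis) of the 9 members at least 2-fold higher, ordered by their processed signal in WT (in brackets), with black bars for the 75th percentile scaling and symbols for 5 alternatives. Igtp, Parp14 and Rtp4 stay beyond 2-fold (dashed line) under all of them, whereas the 6 dim genes fall to between -0.59 and 0.25 under normexp, where the median of all genes is -0.49, or have no fold there (Oas3).

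The share of all genes past 2-fold varied with brightness. Among genes above background on both duodenum arrays with a mean level below -2, 9.17% were at least 2-fold higher and 24.9% at least 2-fold lower, and 2 of 5 members were higher. Between -2 and 0, 517 of 4504 genes and 3 of 10 members were higher, and above 0 it was 4.44% of all genes and 3 of 24 members.

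An ISRE core lay near the start of most members with promoter sequence, 19 of 34. These 34 had 39 RefSeq windows in all. GAAANNGAA, searched on both strands, was in 20 of the 39 windows (51.3%), against 8.56% of all 32851 windows. The GAS motif TTCNNNGAA was in 7 (17.9%), against 8.30% of all, and the 2 motifs overlapped in 1 member window. By role, the ISRE core was in the windows of all 5 GTPase genes that had one, of 9 of 14 antiviral effectors, of 1 of 7 class I genes and of none of the 2 class II genes. GAS was in those of 2 of 5 GTPase genes, 4 of 14 antiviral effectors, 1 of 7 class I genes and none of the 2 class II genes. Shown are 4 of the duodenal genes, namely Igtp at chr11:58199306-58199605, plus strand, Irgm1 at chr11:48871371-48871670, minus strand, Ifit3 at chr19:34583279-34583578, plus strand, and Cxcl10 at chr5:92348840-92349139, minus strand. Capitals mark the ISRE core. The Igtp window also held 1 GAS match, which is not marked.
Igtp: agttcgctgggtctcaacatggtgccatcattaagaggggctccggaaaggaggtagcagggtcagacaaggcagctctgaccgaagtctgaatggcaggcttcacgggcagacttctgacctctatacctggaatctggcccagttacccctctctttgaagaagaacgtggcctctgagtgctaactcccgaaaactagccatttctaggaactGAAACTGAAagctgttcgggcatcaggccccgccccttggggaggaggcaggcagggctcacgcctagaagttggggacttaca
Irgm1: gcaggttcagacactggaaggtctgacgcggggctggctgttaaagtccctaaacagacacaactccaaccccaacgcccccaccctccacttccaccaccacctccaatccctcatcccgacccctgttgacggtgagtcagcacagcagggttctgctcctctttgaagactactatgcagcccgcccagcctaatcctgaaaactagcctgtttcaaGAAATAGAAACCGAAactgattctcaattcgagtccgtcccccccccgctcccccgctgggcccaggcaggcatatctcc
Ifit3: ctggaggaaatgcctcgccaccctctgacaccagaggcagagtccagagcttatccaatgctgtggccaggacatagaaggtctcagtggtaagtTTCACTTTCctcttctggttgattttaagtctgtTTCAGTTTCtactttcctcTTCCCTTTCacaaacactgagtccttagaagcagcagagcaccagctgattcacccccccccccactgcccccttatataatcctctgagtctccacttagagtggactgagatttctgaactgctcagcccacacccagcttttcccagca
Cxcl10: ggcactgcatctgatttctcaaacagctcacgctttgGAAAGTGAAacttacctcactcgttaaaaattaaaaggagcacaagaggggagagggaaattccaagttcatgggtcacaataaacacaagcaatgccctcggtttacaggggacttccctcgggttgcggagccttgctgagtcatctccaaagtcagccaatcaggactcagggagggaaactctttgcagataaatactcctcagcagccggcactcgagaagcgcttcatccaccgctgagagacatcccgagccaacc
Igtp held 1 match, starting 34 bases before the gene start, and Irgm1 held 2 that overlap, starting 30 and 24 bases before it. Ifit3 held 3, starting 155, 121 and 102 bases before, and Cxcl10 held 1, starting 213 bases before. The motif was not limited to genes past 2-fold, since Ifit1 and Isg15, at 0.17 and 0.68 in the duodenum, held 3 matches each.

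The remaining antiviral effectors of the duodenum lay between -0.47 and 0.93. Oasl2 gave 0.93, with levels of 0.97 and 1.90, whereas its relative Oasl1 gave -0.47, with levels of 3.48 and 3.01. Isg15, the ubiquitin-like modifier, gave 0.68 on the brighter probe, or 1.01 under normexp, and 1.20 on the other. Oas1a gave 0.07, Ifit1 0.17, Bst2 (tetherin) 0.16, Rsad2 0.28, Trim30a 0.31, Ifi35 0.34 and Xaf1 0.54. The OAS family was therefore not uniform. Ifit2 and Ifi44 were not well above background in WT and allowed no fold. Of the other GTPases, Gbp3 gave 0.70, Gbp2 0.20 and Iigp1 0.10, and Gbp7, not above background in WT, was at least 1.80-fold higher.

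Among the signalling genes of the duodenum, Stat2 gave 0.92, with levels of 0.39 and 1.31, and Ddx58 gave 0.79, its second probe 0.40. Irf9 gave 0.42, Usp18 -0.03, Ifih1 -0.08 and Irf7, the amplifier of type I interferon, -0.22. None of the 6 was 2-fold apart, and 3 lay above 0 and 3 below.

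Apart from Nlrc5, no class I or class II gene was measured as 2-fold apart in the duodenum. H2-K1 passed 2-fold with normexp, at 1.06, and with quantile normalization within each tissue, at 1.20. The class I median was -0.08, and without Nlrc5 its members lay between -0.82 for Psmb10 and 0.44 for H2-K1, whose second probe gave -0.37. B2m had levels of 6.14 and 6.01, and H2-D1 of 5.53 and 5.45. Psmb8 and Psmb9 gave -0.28 and -0.13, and Tap1 and Tap2 0.26 and 0.03. Among class II genes, H2-Aa gave -0.75, with levels of 3.45 and 2.70, and Cd74 -0.67, with levels of 6.71 and 6.04. H2-Ab1 gave -0.12 and H2-Eb1 0.28, and Ciita, not above background in WT, allowed no fold. Relative to all genes, the class II chains and Cd74 had a median of -0.37. That sign flipped to 0.09 under quantile normalization and 0.71 under normexp, so no direction can be given for them in the duodenum. The class I median relative to all genes was -0.06, and it flipped to 0.16 and 0.81 under the same settings.

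Of the 79 further pathway genes, 74 were measured in the duodenum, with a median of 0.25. Over the 63 above background on both arrays it was 0.13, and 0.03 with the other 11 at their bound, or at 0 where there was no fold. At least 2-fold higher were 6, namely Parp12 (1.67), Isg20 (1.49), Ifi27 (1.36), Ifngr2, a chain of the interferon gamma receptor (1.16), Phf11d (1.11) and Il10rb, a chain shared by the type III interferon receptor (1.01). At least 2-fold lower were 5, namely Gbp6 (-2.15), the DNA and RNA sensor gene Zbp1 (-1.37), the feedback inhibitors Socs1 (-1.31) and Socs3 (-1.06), and the endosomal RNA receptor gene Tlr7 (-1.02). The 6 were 8.11% of the 74, near the 7.20% of all genes, and the 5 were 6.76%, below the 11.9% of all genes. Under normexp Parp12 gave 0.71, Phf11d -0.21 and Socs3 -0.54. With the mean of all probes of a gene Gbp6, Zbp1 and Tlr7 gave -0.45, -0.37 and -0.30. Under quantile normalization of the 4 arrays Il10rb gave 0.97 and Socs3 -0.85. Ifngr1, the partner of Ifngr2, gave -0.65, Ifnar1 0.59, Ifnar2 0.33, Ifnlr1 0.74 and Irf1 0.31. Ifnl3 was the only interferon gene above background on both duodenum arrays, at -0.78. Ifnb1, Ifna4, Ifne and Ifna2 were above background on neither, and Ifna1, Ifnk and Ifng on KO only, with no fold.

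Blood and other cell markers differed in the duodenum as well. All 6 red cell markers were at least 2-fold lower in KO, with a median of -3.39 and summed levels of 1532 in WT and 88.4 in KO, Hba-a2 being the brightest. The B and plasma cell list had a median of -0.28 and summed levels of 178 and 64.0, with Jchain the brightest, at -1.55. The macrophage list had a median of -0.46 with sums of 55.1 and 39.0, the endothelial list one of -0.65 and the pancreatic acinar list one of -1.21. The acinar median turned to 0.31 under quantile normalization of the 4 arrays. Relative to all genes, the macrophage median was -0.43 and turned to 0.44 under normexp. The T and NK cell list had a median of 0.19 with sums of 79.4 and 69.7, and its 9 genes lay between -0.67 for Cd4 and 1.24 for Cd8a, 6 of them above 0. The epithelial list had a median of -0.18, which turned to 0.46 under normexp, and summed levels of 2246 in WT and 1125 in KO, with Fabp2, a fatty acid binding protein gene, at -1.81. The sum over all genes was 345481 in WT and 191314 in KO on the same scale. The part of these cell types in the members' differences was not tested.

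Between the tissues, the members were brighter in the duodenum relative to all genes. In WT mice 29 of 43 members were at least 2-fold higher in duodenum than in spinal cord, against 30.2% of all 25219 genes, and 3 were lower, against 23.1%. In KO mice 36 of 44 were higher, against 30.3% of all 25722 genes, and 1 was lower, against 25.4%. The member median was 2.52 in WT and 2.77 in KO, and that of all genes was 0.24 and 0.06. The 2 contrasts rest on different arrays, but each lies on arrays of very different brightness, and scaling on the spiked-in control probes moved the median of all genes to -4.80 in WT and -1.80 in KO. On that scale 5 members were at least 2-fold higher and 32 lower in the WT duodenum, and 21 higher and 7 lower in the KO duodenum. With quantile normalization within each tissue the counts were 12 and 15 in WT and 13 and 11 in KO. The medians of all genes moved to -2.66 in WT and -2.49 in KO there. Tissue differences are therefore to be read beside the medians of all genes.

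Class II genes were among those furthest apart between the tissues. H2-Ab1 differed by 8.79, Cd74 by 8.74, H2-Aa by 8.56 and H2-Eb1 by 6.58 in WT. In KO mice, the same genes gave 6.75, 6.24, 6.05 and 5.37, in the order named. Class I genes were 8 of 9 at least 2-fold brighter in the WT duodenum and 9 of 9 in the KO duodenum, with medians of 3.36 and 3.19. The immunoproteasome genes Psmb8 and Psmb9 differed by 5.11 and 5.26 in WT, and Tap2 by 1.84. Among the antiviral effectors, Oasl1 differed by 7.94 in WT and 7.06 in KO, and Oas1a by 5.98 and 5.55, while Irf7 differed by 5.63 and 5.20. A few members were at least 2-fold dimmer in the duodenum. In WT these were Irgm1 with -1.53, Ifit3 with -1.08 and Ifit2, which was at least 2.16-fold lower, and in KO only Ifit2, with -2.06. Among the roles with several genes, the GTPases were the nearest to level, with a median of 0.62 in WT and 1.01 in KO.

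**Figure D4:**
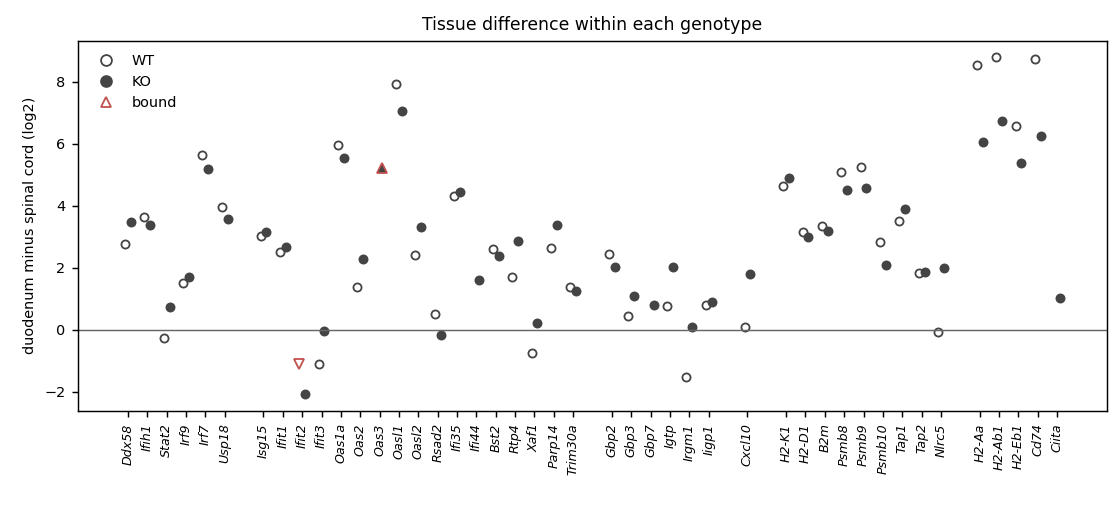
Difference duodenum minus spinal cord (log2, vertical axis) for each member in WT (open) and KO (filled), grouped by role, with red-edged triangles for bounds. The class II chains and Cd74 reach 6.58 to 8.79 in WT and 5.37 to 6.75 in KO.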

How the data were processed

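Total RNA of 4 tissue samples was labelled with Cy3 and hybridized to 1-colour Agilent mouse arrays that shared a slide. The authors scanned the arrays and deposited intensity values from Agilent Feature Extraction 11.5.1.1, in which the processed signal is already background-subtracted. They also deposited a table of log2 values, whose making is not given in the sources used here. It matched quantile normalization of the processed signals of the 4 arrays within 0.1 for all 54 member probes. No column held the authors' own comparisons.

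Only gene spots without an outlier flag were kept (89 to 133 of 43020 per array were dropped). Signals below 1 were set to 1 and converted to log2, and each array was centred on its 75th percentile. Spots of a probe were averaged. Probes were named through 25868 of 26391 RefSeq transcript identifiers, and a gene was represented by its brightest probe, by mean level. A probe measured on just 1 of a pair of arrays gave a bound, set against the higher of its own level and the lowest level well above background on that array. Where this left no fold, none was given. Medians used measured differences.

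With 1 array per group no test was run, and genes are described by values, by counts at 2-fold and by medians beside those of all genes. All members were described, together with pathway genes 2-fold apart on arrays that both measured them, and interferon genes, receptors and Irf1 whatever their values. A few genes of the pathway and marker lists are not reported here and were left out of the counts, medians and sums. The members and lists were chosen with earlier results of these data known. The alternatives were normexp background correction (limma 3.58.1, R 4.3.3, offset 50) on the median spot signal and local background, the same with flagged local backgrounds replaced, quantile normalization, median centring, scaling on 8 spiked-in control probes, the deposited table, the mean of the probes of a gene, 1.5-fold, and other filters on dim probes. Medians with bounds in place of measured differences, and shares by brightness, were added after seeing the data. The scripts (Python 3.11.15, pandas 2.3.3) were tested on simulated data. Promoter windows came from RefSeq, build GRCm38.p6. Probe sequences and positions were not used here.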

Additional observations from a re-analysis of the deposited data

Results flagged for a closer look

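Some members above background on all 4 arrays differed one way in the duodenum, KO against WT, and the opposite way in spinal cord. Each of these differences, from single arrays, was more than 2 technical SDs. The share of all genes that did so is not given here, so the number of such members is not a result. With 1 array per group the difference between tissues was not tested. Duodenal minus spinal cord values of the KO minus WT difference (log2) were -2.51 for H2-Aa, from -0.75 and 1.76, and -2.50 for Cd74, from -0.67 and 1.83. For Nlrc5 the value was 2.06, from 1.71 in duodenum and -0.35 in spinal cord. For Cxcl10 it was 1.72, from 1.32 and -0.40, and for Xaf1 0.97, from 0.54 and -0.43. The value was -0.88 for Oasl1, from -0.47 and 0.41, and -0.59 for Psmb8, from -0.28 and 0.31. Several of these values depended on the processing. Under normexp, which moved the median of all genes to -0.49 in the duodenum, the duodenal difference was 0.28 for Psmb8, 0.11 for Oasl1, -0.09 for Xaf1, -0.59 for Cxcl10, -0.18 for H2-Aa and -0.09 for Cd74. Relative to that median these were 0.77, 0.60, 0.40, -0.10, 0.31 and 0.40, in the same order. In the spinal cord, where it moved the median to -0.54, the difference was -1.26 for H2-Aa, -1.55 for Oasl1 and -0.35 for Psmb8, but with flagged local backgrounds replaced these were 0.70, 0.15 and 0.26. Quantile normalization of the 4 arrays gave -0.47 for H2-Aa and -0.13 for Cd74 in the duodenum. With the mean of the probes of a gene the duodenal values of Xaf1 and Nlrc5 were -0.03 and 0.92. Under normexp the duodenal value of Nlrc5 was 0.20, or 0.69 relative to the median of all genes. The technical SD does not cover variation between mice.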

How the results depend on the processing

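With 1 array per genotype and tissue, no array could be left out. No paired analysis was possible because each group held a single array. Among the medians and counts, 60 alternative values stayed near the reported ones, within the median technical SD of the members for a median and within 1.5 times for a count, and 22 moved. Among the single members, 391 alternative values lay within the technical SD of the reported difference, 270 moved further and 7 turned from a 2-fold difference to the opposite sign. Relative to all genes, the duodenal KO minus WT median was 0.29 and became 0.61 with normexp, 0.61 with flagged local backgrounds also replaced, and 0.39 over genes above background on both arrays. The spinal cord median was 0.22 and became -0.033 with normexp. Local background in the WT spinal cord array reached 15708, and with flagged backgrounds replaced the class II members at 2-fold were 3 of 4. The WT tissue median, 2.28, became 0.76 and 0.87 with normexp without and with replacement, 2.51 with quantile normalization within each tissue, 2.18 with the mean of the probes and 2.01 over genes above background on both arrays. The KO tissue median, 2.71, became 1.42 and 1.40 with normexp, 2.45 with quantile normalization of the 4 arrays and in the deposited table, 2.62 within each tissue, 2.63 with the mean of the probes and 2.39 over genes above background on both. The number of members higher in the KO duodenum, 9 at 2-fold, was 15 at 1.5-fold and 44 with spiked-in scaling, which moved the median of all genes to 2.98. The number lower was 3 at 1.5-fold. Shares of all genes past 1.5-fold are not given here, so counts at 1.5-fold have no background beside them. In spinal cord, the number higher was 8 at 1.5-fold and 1 with normexp, and the number lower 16 with normexp, but 3 higher and 0 lower with flagged backgrounds replaced. With the mean of the probes of a gene, 8 of the 9 duodenal genes remained at 2-fold, without Nlrc5. With normexp, 3 of the 9 duodenal genes remained among 6 at 2-fold. Relative to the median of all genes, 15 members were at least 2-fold higher with normexp against 10 under the reported scaling, again with 3 of the 9, and in spinal cord 4 against 4, of which 3 were shared. Normexp moved the median of all genes to -0.49 in duodenum and, without replacement, -0.54 in spinal cord. Before allowing for that shift, single genes turned with normexp, without and with replacement, to -0.31 and -0.30 for Oas2, -0.14 and -0.14 for Irgm1 and -0.59 and -0.59 for Cxcl10 in duodenum, and H2-Aa in spinal cord turned to -1.26 without replacement. Relative to all genes, Oas2 and Irgm1 stayed above 0, at 0.19 and 0.35. The cause was not tested. The dim WT duodenum array limits what can be read from genes near its background.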
